A study of Drosophila melanogaster with 9 samples.

Results

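The *Drosophila* *sut* genes, *sut1*, *sut2*, *sut3* and *sut4*, encode sugar transporters of the SLC2 type, membrane proteins with the fold of the major facilitator superfamily that let hexoses or related sugars cross a membrane down their gradient. The sugar that circulates in fly blood is mainly trehalose, which cells take up through trehalose transporters or split into glucose with the enzyme trehalase. In the testis, somatic cyst cells enclose the developing germ cells, so sugar reaches a maturing spermatocyte through those cells. The 4 genes were taken by their annotated gene symbol, and each had 1 probe set among the 18769 tested, which cover 11981 genes through probe sets with 1 symbol. The family was chosen by the large fall of *sut4* in the mutant testes, so the values of *sut4* are given as a description without a test.

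Transcript levels in whole testes of young adult males were compared between 3 genotypes on Affymetrix arrays, with 3 arrays each. The control was *w; tinRNAi/+; bamGal4VP16/+* grown at 29°C, in which an RNAi construct against *tin* was driven in germ cells by *bam-Gal4VP16* and which is labelled as normal testis. The *aly* testes were homozygous for *aly[5] red[1] e[1]* and came from flies grown at 27°C, and the *Nxt1* testes were *w; Nxt1[z2-0488]/Nxt1[DG05102]* from flies grown at 25°C. *aly* encodes a subunit of tMAC, the transcription activator complex of primary spermatocytes, and *Nxt1* encodes an mRNA export factor. The first *Nxt1* allele is a missense mutation with residual function and the second a P-element insertion. All males were dissected within 1 day of eclosion. Genotype cannot be told apart from culture temperature in this design, nor from the run in which arrays were made, since the *Nxt1* arrays were set against arrays that already existed. Testes of both mutants hold germ cells only up to mature primary spermatocytes, whereas control testes also hold meiotic cells and spermatids, so a loss of cells that carry a transcript and less transcript per cell cannot be told apart.

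Signals are RMA values on a linear scale, and all differences are differences of mean log2 signals. The median signal over all probe sets was between 98.4 and 109.5 on the 9 arrays. Markers of testis germline and cyst cells were all measured (14 of 14), and their summed signal was 39360 to 40300 in control, 22370 to 23230 in *aly* and 24030 to 27130 in *Nxt1* testes. In control the largest members were the spermatid genes *Mst87F* and *ProtB* (means of 21331 and 8358). Both fell in both mutants (*Mst87F* by 0.87 in *Nxt1* and by 2.57 in *aly*), and other members went the other way. The largest member was *sa* in *aly* (9175), where *ProtB* was 115, and *Mst87F* in *Nxt1* (11718). In *Nxt1* 6 of the 14 were called higher and 6 lower, beside 34.1% and 24.2% of all probe sets. In *aly*, where 44% and 20% of all probe sets were called, 6 markers were higher and 5 lower. Those higher in both included *bam* (1.74 in *Nxt1* and 2.57 in *aly*), *can* (2.18 and 2.54) and the cyst cell marker *eya*, with means of 534, 799 and 862 in control, *aly* and *Nxt1*. The germline marker *vas* (66.9 ± 3.16 in control, SD, n = 3) and the cyst cell markers *tj* and *zfh1* were under the array median. The summed signal of 12 measured accessory gland genes (of 14) was 1281 to 32420 in control, 39190 to 94940 in *aly* and 46910 to 145000 in *Nxt1* testes, with control replicate 1 the lowest array. Muscle genes (9 of 12) summed to 14050 to 14820, 7948 to 8704 and 5577 to 9342, and fat body genes (6 of 9) to 6763 to 7181, 10950 to 13560 and 5343 to 6407, in control, *aly* and *Nxt1*. Within both lists the members differed. *Act87E*, the largest muscle member in control, had means of 8704, 1683 and 1680 in control, *aly* and *Nxt1*. *sls* was also lower in both mutants, while *up* and *Tm2* were called higher in both. In the mutants *Mlc1* was the largest member (2643 in *aly* and 2105 in *Nxt1*). *Lsp2*, *Fbp1* and *Fbp2*, the fat body storage and binding protein genes, were higher in *aly* (4.12, 4.24 and 3.90) and did not pass in *Nxt1*, while *apolpp* was lower in both (-2.07 in *aly* and -2.43 in *Nxt1*). Ejaculatory duct and bulb genes (3 of 5) summed to 2885 to 6068, 14990 to 24910 and 8538 to 30710, and gut and Malpighian tubule genes (6 of 8) to 320.1 to 323.3, 481.2 to 545.2 and 286.8 to 319.4. Signal of *aly* itself was 99.3 ± 6.62 in control, 53.7 ± 3.45 in *aly* and 368 ± 15.6 in *Nxt1* testes (SD, n = 3 each). That of *Nxt1* was 348 ± 3.63, 922 ± 195 and 869 ± 66.7, higher in the testes mutant for it than in control. The alleles are a point mutation and an insertion, and the position of the probes relative to them is not given in the sources used here.

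The 4 *sut* genes fell into 2 kinds. *sut4* and *sut3* had high signals in control testes and much lower signals in both mutants, where only *sut4* lay under the array median. In contrast, *sut1* and *sut2* differed by less than 1 log2 unit between any 2 genotypes.

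**Figure D1:**
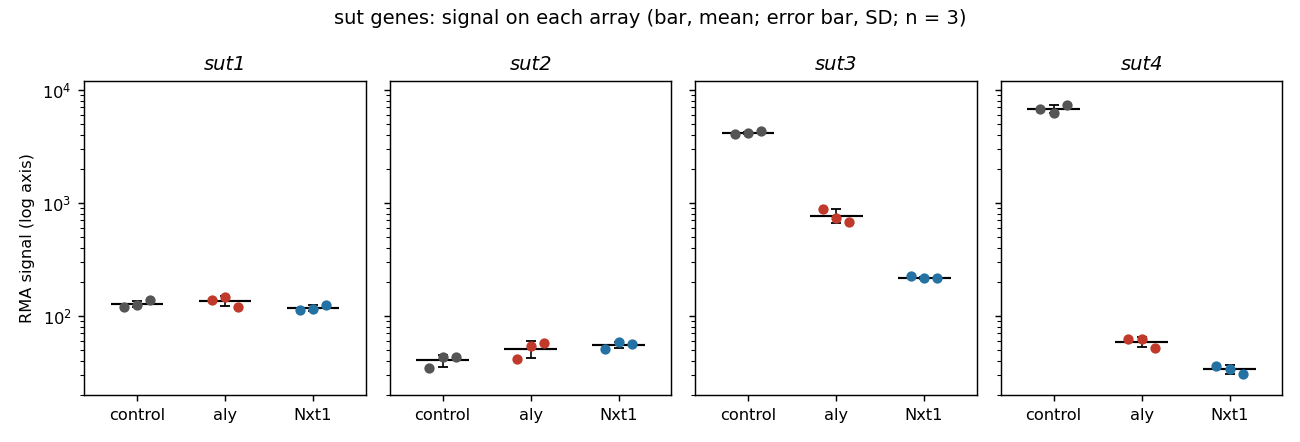
Signal of each *sut* gene on each array (log axis), with 1 panel a gene. Points are arrays, bars the mean and error bars the SD of 3 arrays. Signals of *sut3* and *sut4* separate the 3 genotypes without overlap, those of *sut1* overlap in every pair, and those of *sut2* lie higher in *Nxt1* than in control.

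*sut4* had a signal of 6729, 6305 and 7315 on the control arrays. In *aly* testes it was 62.9, 62.8 and 52.3, and in *Nxt1* testes 36.3, 34.2 and 30.3. Every array of either mutant was under the array median for this gene, and no 2 genotypes overlapped. The mean fell from 6783 ± 507 to 59.3 ± 6.08 in *aly* and to 33.6 ± 3.02 in *Nxt1* (SD, n = 3 each). On the log2 scale the difference was -6.84 in *aly*, a 114.5 fold decrease, and -7.66 in *Nxt1*, a 202.0 fold decrease. Ordered from the lowest log2 difference over all 18769 probe sets, *sut4* was number 7 in *Nxt1* minus control and number 86 in *aly* minus control. The signal in *Nxt1* was 1.76 fold lower than in *aly*, a gap between values that all lie under the array median. RMA gives no detection call, so these folds are ratios of signals, and may understate the change where the lower signal is background. The probe set carries the suffix that marks probes able to match more than 1 transcript, although the annotation pairs it with *sut4* alone.

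*sut3*, which was not used to choose the family, showed the second large fall. Control arrays gave 4097, 4142 and 4292, and *aly* arrays 887, 740 and 680. The *Nxt1* arrays gave 223, 217 and 215. The 3 genotypes formed separate steps, with *aly* between control and *Nxt1*. The mean of 4177 ± 102 in control compared with 769 ± 106 in *aly* and 218 ± 4.57 in *Nxt1* (SD, n = 3 each). In *Nxt1* minus control the log2 difference was -4.26 ± 0.0981 (SE), 19.1 fold lower, with a limma adjusted p of 3.36e-10. In *aly* minus control it was -2.45 ± 0.0981, 5.46 fold lower (adjusted p = 6.32e-09). The background of these calls was large. Of all probe sets, 24.2% were called lower in *Nxt1* minus control at an adjusted p under 0.05 and 34.1% higher, and 69.2% had arrays that did not overlap in either direction. In *aly* minus control 20% were called lower, 44% higher and 66.8% did not overlap. By size of the fall, *sut3* was number 431 of 18769 in *Nxt1* and number 1548 in *aly*, counted from the lowest. Leaving out any 1 array kept the difference between -4.27 and -4.24 in *Nxt1* and between -2.56 and -2.37 in *aly*.

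In the direct comparison of the mutants, *sut3* was 3.50 fold lower in *Nxt1* than in *aly* testes, with a log2 difference of -1.81 ± 0.0981 (SE, adjusted p = 2.02e-07). In *Nxt1* minus *aly*, 38.5% of all probe sets were called lower and 20.6% higher, and 64.3% did not overlap. The residual signal of *sut3* in *aly* testes was above the array median on each array, and that in *Nxt1* testes was too. For *sut4* both mutants were under the median, so its step between them (-0.82 on the log2 scale) is between low signals, is not comparable with that of *sut3* and was not tested. The comparisons with control share the control arrays, and each gene is set against its own control only.

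*sut2* had low signals throughout, under the array median on every array. It measured 34.5, 43.4 and 43.1 in control, 41.6, 54.2 and 57.8 in *aly* and 51.2, 58.3 and 56.3 in *Nxt1* testes. The *Nxt1* arrays were all above the control arrays, and the *aly* arrays overlapped with both. In *Nxt1* minus control the log2 difference was 0.46 ± 0.139 (SE, adjusted p = 0.0166), a 1.38 fold increase. The call was lost without control replicate 1 (0.35, adjusted p = 0.0682), the array with the lowest accessory gland signal, and without *Nxt1* replicate 2 (0.42, adjusted p = 0.0567). The difference also became negative when arrays were centred on probe sets of ribosomal protein genes (-0.67) or on *CG3927* (-0.31), a gene the study used as its spermatocyte reference. The part of the other tissues' RNA in this difference was not tested. In *aly* minus control the difference of 0.34 did not pass (adjusted p = 0.0572, 95% interval 0.02 to 0.65). Nor did that of 0.12 between the mutants (adjusted p = 0.46, interval -0.19 to 0.44). Intervals here, unlike the p-values, are not adjusted for the number of probe sets, so they need not match the calls.

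*sut1* passed the test in no comparison. Its signal was 120.6, 125.7 and 137.7 in control, 138.8, 146.7 and 120.9 in *aly* and 113.0, 115.0 and 126.2 in *Nxt1* testes. All 3 ranges overlapped. The log2 difference was -0.12 in *Nxt1* minus control (adjusted p = 0.336, 95% interval -0.33 to 0.10), 0.08 in *aly* minus control (adjusted p = 0.495, -0.14 to 0.29) and -0.20 between the mutants (adjusted p = 0.106, -0.41 to 0.02). These intervals bound the change that the arrays allow on the RMA scale. Both centrings move all differences from control down together. That on ribosomal protein probe sets lowers every log2 difference by 1.13 in *Nxt1* and by 1.22 in *aly*, that on *CG3927* by 0.78 and 1.14, and *sut1* was called lower in both mutants under each.

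Of the 4 family members, 1 was called lower in both mutants by a test (*sut3*), 1 was called higher in *Nxt1* minus control with the exceptions above (*sut2*), 1 was not called (*sut1*) and 1 has no test (*sut4*). Of all the probe sets tested, 24.2% were called lower and 34.1% higher in *Nxt1* minus control (20% and 44% for *aly*), so these counts are near the background. *sut1*, *sut2* and *sut3* are consecutive genes in the RefSeq annotation of the release 6 assembly, and *sut4* lies elsewhere on the same chromosome arm.

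**Figure D2:**
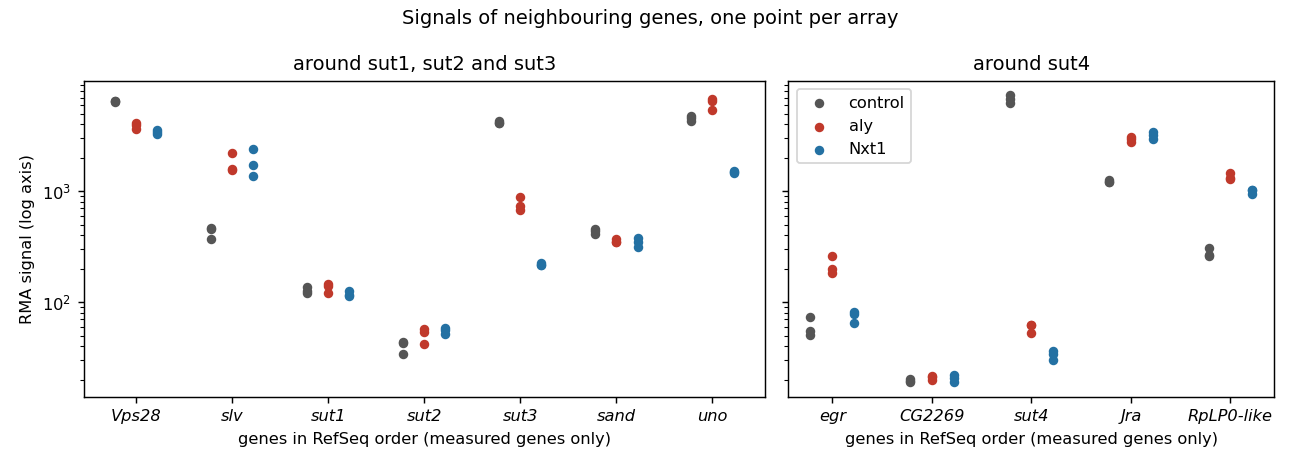
Signals (log axis) of the *sut* genes and of the measured genes next to them, in RefSeq gene order, with 1 point an array. *sut3* falls between *sut2* and *sand*, which change by less than 0.5 log2 units in either mutant, and *sut4* falls between *CG2269*, with signals near 20, and *Jra*, which is higher in both mutants.

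The genes beside the *sut1* to *sut3* cluster moved in several directions. On its outer side next to *sut1* lies *slv*, which encodes a sugar transporter of the SWEET family. Its signal was 370, 455 and 464 in control, 1575, 2214 and 1553 in *aly* and 1366, 1736 and 2382 in *Nxt1* testes. *slv* was 4.17 fold higher in *Nxt1* than in control (log2 difference 2.06 ± 0.208, SE, adjusted p = 1.10e-05) and rose by 2.04 in *aly* (adjusted p = 1.01e-05), and it stayed higher under both centrings. *slv* arrays of both mutants were all above control, as were the accessory gland sums, and the part of the other tissues' RNA in this rise was not tested. *Vps28*, an ESCRT-I subunit of endosomal sorting, was lower in *Nxt1* (-0.93, adjusted p = 1.80e-06) and in *aly* (-0.74, adjusted p = 9.41e-06).

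On the side of *sut3*, *sand*, a potassium channel gene, was slightly lower in *Nxt1* (-0.32, adjusted p = 0.0103) and in *aly* (-0.29, adjusted p = 0.0159), the latter call being lost without control replicate 3 (-0.25, adjusted p = 0.0591). The next gene, *uno*, separated the mutants. Its mean was 4527 ± 230 in control, 6250 ± 756 in *aly* and 1495 ± 41.2 in *Nxt1* (SD, n = 3 each). It was lower in *Nxt1* (-1.60, adjusted p = 2.20e-07) and higher in *aly* (0.46, adjusted p = 0.00208), although the latter turned into a fall under either centring (-0.76 and -0.68).

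Around *sut4*, the adjacent *CG2269* had a mean of 19.6 in control, 21.0 in *aly* and 20.5 in *Nxt1* testes and was not called. On the other side, *Jra*, the fly Jun transcription factor, rose from 1236 ± 26.6 to 2932 ± 168 in *aly* and 3204 ± 235 in *Nxt1* (SD, n = 3 each; log2 differences 1.25 and 1.37, adjusted p = 2.85e-07 and 1.79e-07). With either centring the rise of *Jra* in *aly* no longer passed (0.03 and 0.11). The following gene, *RpLP0-like*, a relative of a ribosomal stalk protein gene, was also higher in both (1.84 in *Nxt1*, adjusted p = 3.86e-08, and 2.28 in *aly*, adjusted p = 5.09e-09). Beyond *CG2269*, the first measured gene was *egr*, which encodes the TNF ligand Eiger. It was higher in *aly* (1.85, adjusted p = 4.41e-06), with means of 59.7 ± 12.1, 214 ± 39.6 and 75.1 ± 8.81 in control, *aly* and *Nxt1* (SD, n = 3 each). None of the measured neighbours on either side of *sut4* was called lower in a mutant on the RMA scale. On the side of *CG2269* a fall could hardly be seen. *CG2269* (19.6) and *egr* (59.7) were under the array median in control, and 5 genes lie between *egr* and *sut4*.

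The other SLC2-type transporters of the fly give the frame for these values. Of 23 such genes listed, 22 had a probe set with 1 symbol. In *Nxt1* minus control 10 were called lower and 4 higher (45.5% and 18.2% of the 22, beside 24.2% and 34.1% of all probe sets), and the median log2 difference was -0.42, beside -0.01 over all probe sets. In *aly* minus control 9 were lower and 7 higher (40.9% and 31.8%, beside 20% and 44%), with a median of 0.23 beside 0.21. Many of these genes had low signals, and 9 of the 22 lay under the array median on every array. Without those 9, the number called lower was 6 in *Nxt1* and 5 in *aly*, an alternative added after seeing the data. These come from a shorter list and are not comparable with the 10 and 9 of the 22. With all 22 but without control replicate 1 the counts were 10 lower and 3 higher in *Nxt1*, and 8 lower and 6 higher in *aly*. Centring on ribosomal protein probe sets gave 18 lower and 1 higher in *Nxt1*, beside 14579 lower and 2104 higher of all 18769 probe sets.

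**Figure D3:**
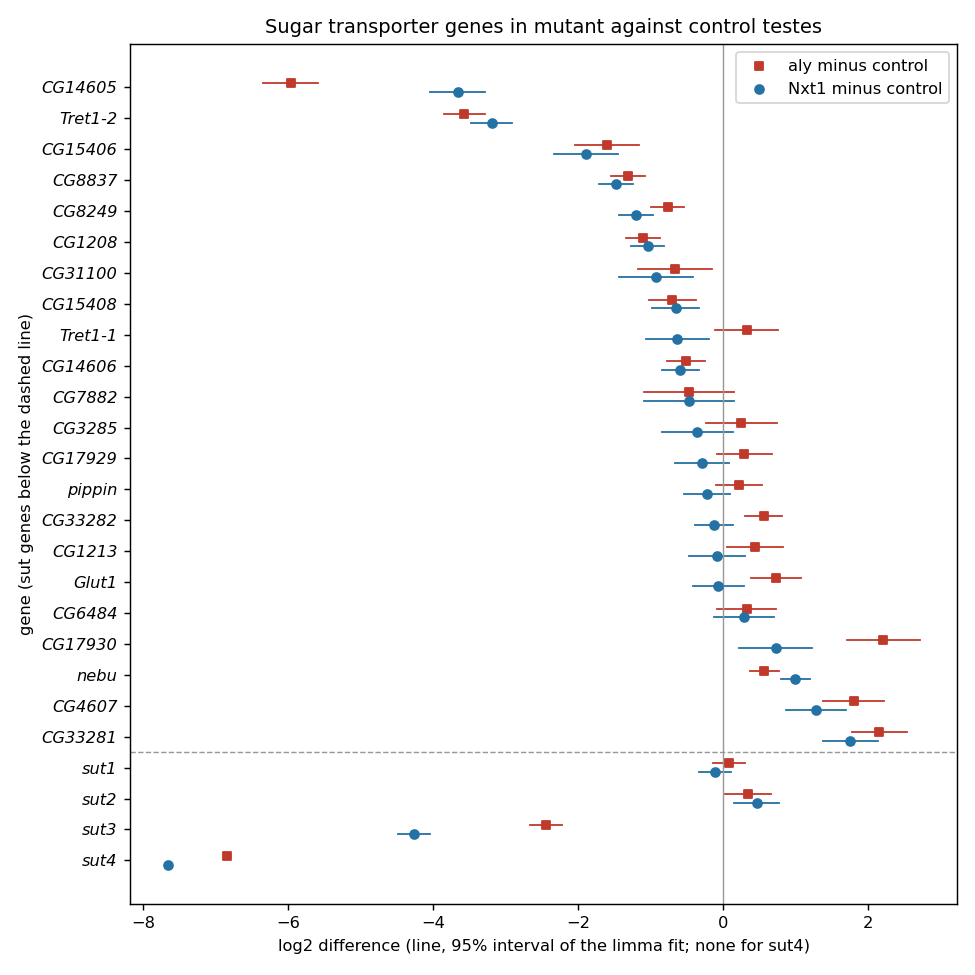
Log2 difference from control of 22 SLC2-type transporter genes and of the 4 *sut* genes (below the dashed line) in *aly* (squares) and *Nxt1* (circles). Lines are 95% intervals of the limma fit, and *sut4* has none. *CG14605* and *Tret1-2* are the genes outside the *sut* family with falls of 4 fold or more in both mutants, and *CG33281* is the one with rises of over 3 fold in both.

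Among the transporters outside the family, *CG14605* and *Tret1-2* fell by 4 fold or more in both mutants. *CG14605* had signals of 6835 ± 363 in control, 112 ± 29.3 in *aly* and 542 ± 62.4 in *Nxt1* testes (SD, n = 3 each). It was thus lower in *aly* (-5.96, adjusted p = 5.19e-10) than in *Nxt1* (-3.66, adjusted p = 2.64e-08), and the difference between the mutants, 2.30, passed by itself (adjusted p = 1.80e-06). That is the opposite order to *sut3*, which was lower in *Nxt1*. *Tret1-2*, a paralog of the trehalose transporter gene *Tret1-1*, measured 1010 ± 17.2, 85.5 ± 13.1 and 111.0 ± 13.0 in control, *aly* and *Nxt1*. Its log2 difference was -3.57 in *aly* (adjusted p = 2.50e-09) and -3.19 in *Nxt1* (adjusted p = 9.43e-09). *Tret1-1* and *Glut1*, named here after their values were seen, did not share this fall. *Tret1-1* was lower in *Nxt1* by 0.63 on the log2 scale (adjusted p = 0.0176, and 0.0701 without control replicate 2) and did not pass in *aly* (adjusted p = 0.177). *Glut1*, a glucose transporter gene, was higher in *aly* (0.73, adjusted p = 0.00212) but turned lower under both centrings (-0.49 and -0.41), and it did not pass in *Nxt1* (adjusted p = 0.733). Its other probe sets, with signals under the array median, did not pass in *aly* (0.10 and 0.21, adjusted p = 0.471 and 0.0841).

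A pair of transporter genes rose by 4 fold or more in *aly*. *CG33281* went from 2282 ± 460 in control to 10075 ± 1795 in *aly* and 7578 ± 351 in *Nxt1* (SD, n = 3 each), with log2 differences of 2.15 (adjusted p = 1.27e-06) and 1.75 (adjusted p = 7.71e-06). A second probe set of *CG33281* gave 2.22 and 1.89. *CG17930* went from 71.2 ± 7.81 to 337 ± 94.7 in *aly* (2.21, adjusted p = 9.53e-06) and to 119 ± 24.6 in *Nxt1*. Its smaller rise in *Nxt1* (0.72, adjusted p = 0.0192) became negative under both centrings (-0.41 and -0.055), and did not pass without control replicate 1 or 3 or without *Nxt1* replicate 2 or 3 (adjusted p between 0.051 and 0.0708). Summed accessory gland signal was higher in both mutants, as *CG33281* was. *CG17930* rose by 2.21 in *aly*, where 4 of the 6 measured fat body markers were called higher and 2 lower. The shares of all probe sets there were 44% and 20%. In *Nxt1* 1 of the markers was higher and 2 were lower, beside 34.1% and 24.2% of all probe sets. The part of either tissue's RNA in these differences was not tested.

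A second list held 9 genes, the transporters *slv* and *Slc45-1* and 7 genes of the first steps of sugar use. In *Nxt1* minus control 3 of the 9 were called lower and 3 higher (33.3% each, beside 24.2% and 34.1% of all probe sets), with a median of -0.04 beside -0.01. For *aly* 3 were lower and 5 higher (33.3% and 55.6%, beside 20% and 44%), with a median of 0.31 beside 0.21. With either centring 7 were lower and 1 higher in *Nxt1*. Of all 18769 probe sets, 14579 were lower there when centred on ribosomal protein probe sets and 12971 when centred on *CG3927*. The only gene 4 fold or more higher in *Nxt1* was the transporter gene *slv*.

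**Figure D4:**
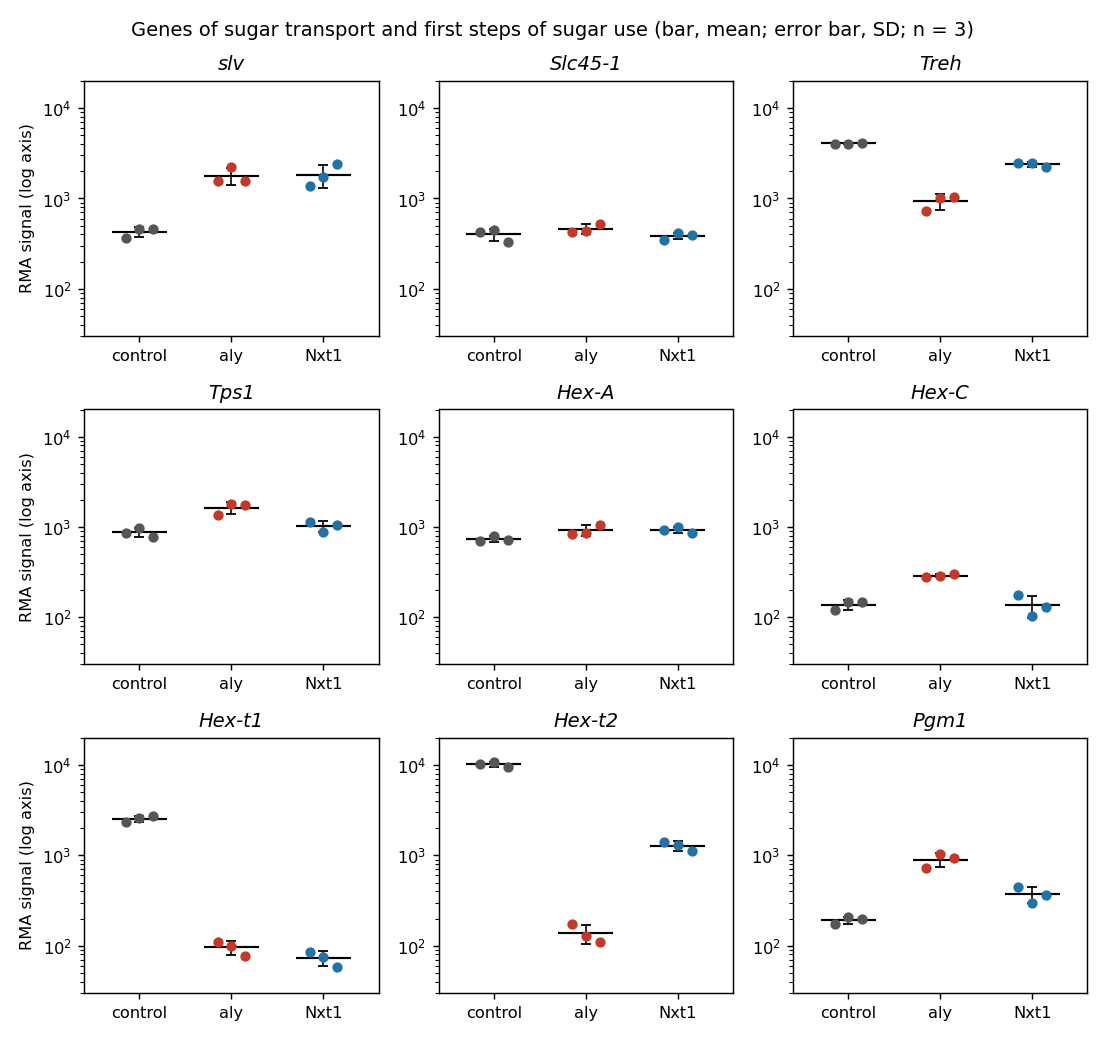
Signal of 9 genes of sugar transport and of the first steps of sugar use on each array (log axis), with means as bars and SDs of 3 arrays as error bars. *Hex-t1* is low in both mutants, and *Hex-t2* and *Treh* are lower in *aly* than in *Nxt1*.

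The hexokinases, which phosphorylate glucose on entry, did not move together. *Hex-t1* and *Hex-t2* are the testis hexokinase genes. *Hex-t1* measured 2560 ± 199.7 in control, 95.6 ± 17.4 in *aly* and 73.5 ± 13.9 in *Nxt1* testes (SD, n = 3 each), a fall of 4.76 and of 5.14 log2 units (adjusted p = 2.39e-09 and 2.67e-09). *Hex-t2* measured 10254 ± 651, 138 ± 32.9 and 1279 ± 161. Its fall in *aly* (-6.24, adjusted p = 3.07e-10) exceeded that in *Nxt1* (-3.01, adjusted p = 8.23e-08), with a difference between the mutants of 3.23 (adjusted p = 1.10e-07). *Hex-A*, the broadly expressed hexokinase gene, was slightly higher in *Nxt1* (0.33, adjusted p = 0.0284) and *aly* (0.31, adjusted p = 0.0318). Without control replicate 1 it passed in neither (adjusted p = 0.0906 and 0.0964), and both centrings turned it lower. *Hex-C* rose in *aly* (1.07, adjusted p = 3.47e-04), while its means in control and *Nxt1* were 138 and 136.5, and the difference in *aly* became -0.15 or -0.063 under the centrings.

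*Treh*, which encodes trehalase, had a mean of 4075 ± 61.4 in control, 929 ± 183 in *aly* and 2390 ± 133 in *Nxt1* (SD, n = 3 each). The fall was -2.15 in *aly* (adjusted p = 1.96e-07) and -0.77 in *Nxt1* (adjusted p = 6.23e-04), and the mutants differed by 1.38 (adjusted p = 1.56e-05). *Tps1*, the gene of trehalose synthesis, was higher in *aly* (0.90, adjusted p = 3.10e-04, turning to -0.32 and -0.24 with the centrings) and did not pass in *Nxt1* (adjusted p = 0.202). *Pgm1*, which interconverts glucose phosphates, rose in *aly* (2.21, adjusted p = 1.06e-06) and in *Nxt1* (0.93, adjusted p = 8.87e-04, turning to -0.20 when centred on ribosomal protein probe sets and to 0.15, adjusted p = 0.40, on *CG3927*). *Tps1*, *Hex-C* and *Pgm1* were higher in *aly*, where 4 of the 6 measured fat body markers were called higher and 2 lower. The shares of all probe sets there were 44% and 20%. In *Nxt1*, where *Pgm1* also rose, 1 of the markers was higher and 2 were lower, beside 34.1% and 24.2%. The part of fat body RNA in these rises was not tested. *Slc45-1*, a sucrose transporter gene, passed in neither (adjusted p = 0.184 and 0.817). As with *CG14605*, the falls of *Hex-t2* and *Treh* were larger in *aly* than in *Nxt1*, whereas *sut3* fell further in *Nxt1*.

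Between the mutants, 10 of the 22 SLC2-type genes were lower in *Nxt1* than in *aly* and 3 higher, beside 38.5% and 20.6% of all probe sets, and the median difference was -0.34 beside -0.18. Centring on *CG3927* turned this to 3 lower and 5 higher, and the share of all calls that were lower went from 65.1% to 26.5%. The number lower was 6 without *Nxt1* replicate 2. *Glut1* (-0.79, adjusted p = 0.00169), *Tret1-1* (-0.95, adjusted p = 0.00218) and *CG17930* (-1.49, adjusted p = 3.37e-04) were among the lower ones, with *CG14605* and *Tret1-2* (0.38, adjusted p = 0.026) among the higher. The other probe sets of *Glut1*, with signals under the array median, did not pass between the mutants (adjusted p = 0.137 and 0.334). *Tret1-2* did not pass without *aly* replicate 3 or without *Nxt1* replicate 1 or 2, nor when the mutants were fitted without the control (adjusted p = 0.0587).

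For *sut3* and *sut4*, the genes with the nearest profiles over the 9 arrays were listed. Likeness was taken as the root mean square difference of log2 signals, each centred on its own mean, over probe sets with 1 symbol, with the 3 genotypes supplying nearly all the variation. Nearest to *sut3* were *S-Lap7* (0.152), a sperm leucylaminopeptidase gene, *CG14269* (0.162), *CG9263* (0.169), *CG14864* (0.205) and *CG17648* (0.231). *S-Lap7* had means of 23362 in control, 4361 in *aly* and 1198 in *Nxt1*, which gave 19.6 fold lower in *Nxt1* and 5.37 fold in *aly*, close to the 19.1 and 5.46 fold of *sut3*. Nearest to *sut4* were *CG5906* (0.162), *CG14391* (0.214), *CG32161* (0.258), *Mics1* (0.262) and *CG43072* (0.264). *CG5906* went from 5963 in control to 50.5 in *aly* and 26.3 in *Nxt1*, 119.9 and 228.3 fold lower. These genes were picked for their nearness over the same arrays, so the closeness of their folds follows from that choice.

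**Figure D5:**
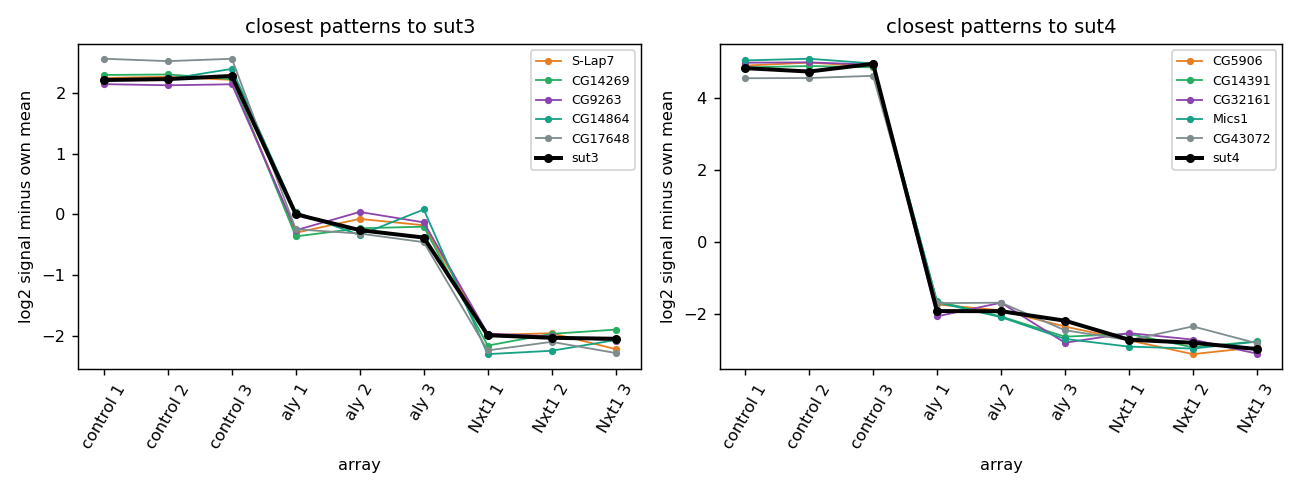
Log2 signal minus the gene's own mean on each of the 9 arrays, for *sut3* and *sut4* (1 panel each) and the 5 genes whose profile is nearest to each. The *sut3* panel shows 3 steps, from control through *aly* to *Nxt1*, and in the *sut4* panel both mutants lie far below control with a small step between them.

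The names depended on the measure. Ranked by Pearson's r over the same 9 arrays, which ignores the size of a change, the nearest to *sut3* were *CG17648* (r = 0.999), *CG7856*, *CatB*, *CG18808* and *CG42523*, of which only *CG17648* was also near by the root mean square. For *sut4* they were *CG17048* (r = 1.000), *Pos*, *CG32986*, *CG32988* and *CG14546*, with none in both sets. *CatB* fell 4.76 fold in *Nxt1*, against 19.1 fold for *sut3*, at an r of 0.997. The pool of genes with falls was large, since 4533 probe sets were called lower in *Nxt1* and 3756 in *aly*.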

How the data were processed

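RNA was extracted from whole testes of young adult males and hybridised to Affymetrix arrays, 3 for each genotype. The authors made the deposited values with GCOS and RMA (versions not given in the sources used here), and they are signal intensities on a linear scale. RMA corrects background, equalises the distributions of the arrays and combines the probes of each probe set into 1 value, so it assumes that most transcripts do not move one way, and it gives no detection call. The genome build was not given in the sources used here.

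Of 18952 probe sets, 183 array controls were left out. The probe annotation gave 13646 probe sets 1 symbol, 402 several and 4721 none, and 13543 of the first kind matched the RefSeq gene table by gene ID (used only for names and gene order). *Glut3* and *tin* have no probe set with 1 symbol and are not analysed here. The log2 signals of all 9 arrays entered 1 limma model (limma 3.58.1 in R 4.3.3, lmFit then eBayes) with a mean for each genotype and Benjamini-Hochberg adjustment over 18769 probe sets and calls at an adjusted p under 0.05. The procedure was checked on simulated data. For a listed gene with several probe sets, the one with the highest mean log2 signal stood for the gene. Named genes were the family, SLC2-type genes changed 4 fold or more and passing, all 9 genes of the sugar use list, 2 measured neighbours a side, the 5 nearest profiles and the targeted genes. Members and lists were chosen with earlier results of these data known. Labels do not say that the arrays came from separate cultures, so p-values measure the spread between these arrays. With 3 arrays a group an exact permutation test cannot go below 0.1. Alternatives were 2 centrings, linear means, removal of dim probe sets, each array left out, other limma settings and the replicate number as a block. Tables and figures used Python 3.11.15, pandas 2.3.3, numpy 2.4.6 and matplotlib 3.10.9.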

Additional observations from a re-analysis of the deposited data

How the results depend on the processing

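The fall of *sut3* kept its direction in every comparison under every alternative and its call under every alternative with a test (means on the linear scale have none), and that of *sut4* kept its direction. Centring the arrays mattered most. On ribosomal protein probe sets, *Nxt1* minus control gave -1.24 for *sut1*, -0.67 for *sut2* and -8.79 for *sut4*, with 1 SLC2-type gene higher and 18 lower and 1 gene of the sugar use list higher and 7 lower. In *aly* minus control it gave -1.14, -0.88 and -8.06, with 3 higher and 19 lower, and 2 higher and 6 lower. On *CG3927* the values were -0.89, -0.31 and -8.43 in *Nxt1* (2 higher and 18 lower; 1 and 7), and -1.06, -0.80 and -7.98 in *aly* (3 and 19; 2 and 5). Between the mutants that centring gave 0.17, 0.49 (adjusted p = 0.0152) and -0.46, with 5 SLC2-type genes higher and 3 lower. The share of calls that were lower moved from 41.5% to 87.4% and 80.4% in *Nxt1* minus control, from 31.3% to 85.4% and 83.8% in *aly* minus control and from 65.1% to 55.1% and 26.5% between the mutants. Over all probe sets the counts higher and lower became 2104 and 14579 or 3158 and 12971 in *Nxt1*, 2442 and 14266 or 2681 and 13905 in *aly*, and with *CG3927* 6956 and 2513 between the mutants.

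Named genes reversed by the centrings were *CG17930* (-0.41 and -0.055), *Hex-A* (-0.80 and -0.45) and, on ribosomal probe sets alone, *Pgm1* (-0.20) in *Nxt1*. In *aly* they were *Glut1* (-0.49 and -0.41), *Tps1* (-0.32 and -0.24), *Hex-A* (-0.90 and -0.82), *Hex-C* (-0.15 and -0.063) and *uno* (-0.76 and -0.68). *Vps28* reversed between the mutants on *CG3927* (0.17). The named transporters outside the family, the sugar use genes and the neighbours had 49 calls. Of these, 34 held under every alternative that has a test, 8 changed with a centring only and 7 with another alternative. Calls of the *sut* genes are not in this count.

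With dim probe sets removed, 4 SLC2-type genes were lower in *Nxt1*, 3 in *aly* and 5 between the mutants. Over all probe sets 2663 were then lower in *Nxt1*, 2674 in *aly* and 3624 between the mutants. Without the genes under the array median the list gave 6 and 5 lower against control. Both removals shorten the list, so these counts are not comparable with those of the 22 genes. With 1 array left out, *sut2* ranged from 0.35 to 0.52 in *Nxt1* minus control. In *aly* minus control it ranged from 0.23 to 0.48, passing without *aly* replicate 1 (adjusted p = 0.00652). Between the mutants it ranged from -0.019 to 0.22, and *sut1* from -0.27 to -0.14, passing without *aly* replicate 3 (adjusted p = 0.0332). SLC2-type genes lower between the mutants numbered 6 to 11.

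Deviations from the group mean correlated between -0.23 and 0.35 for same-numbered arrays and between -0.35 and 0.28 for arrays of different numbers. With 3 arrays a group, these values do not settle whether replicate numbers pair the arrays. With the replicate block *sut2* passed in *aly* minus control (0.34, adjusted p = 0.0104) and *Vps28* was lost between the mutants (adjusted p = 0.0658). The cause of these changes was not tested. Signals under the array median (*sut2*, and *sut4* in both mutants) limit what the arrays can resolve, and RMA gives no detection call for them.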
